A study of Mus musculus with 77 samples.

Results

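The effect of a low levodopa regimen on direct pathway spiny projection neurons (dSPN) of the dopamine-depleted striatum was read by comparing 12 arrays of lesioned mice given chronic low-dose levodopa with 11 arrays of lesioned mice given chronic saline. These 23 arrays of the 77 in the series were taken by the submitters' label for cell type, lesion and drug, and all genes with a usable probe set were examined. Each array (Affymetrix mouse 430 2.0) came from the dorsal striatum of a single mouse, on the side of the lesion. Messenger RNA was obtained by translating ribosome affinity purification (TRAP), in which tagged cells make the ribosomal protein L10a fused to green fluorescent protein (EGFP-L10a) and its ribosomes are captured with their RNA.

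All 23 mice were hemizygous carriers of a Drd1::EGFP-L10a bacterial artificial chromosome transgene (line CP73), in which the dopamine D1 receptor gene's regulatory sequence drives the tag. They were males on a C57BL/6J background, 9 to 14 weeks old, and all had received 6-hydroxydopamine (6-OHDA, 3.2 µg/µl), a toxin of dopamine neurons, in the right medial forebrain bundle, so dopamine loss was shared by both groups. The low-dose group was injected once a day in the abdomen with levodopa methyl ester, first 1 mg/kg (days 1 to 3) and then 2 mg/kg (days 4 to 9), with benserazide (12 mg/kg), which blocks conversion of levodopa outside the brain. The saline group had saline injections on the same schedule, and the labels give no benserazide for it. Mice with a successful lesion by turning and limb use were allocated at random, and all were killed right after their last behavioural session. The low regimen was chosen by the submitters for recovery of limb use with no conspicuous dyskinesia, the involuntary movement that levodopa can cause. For orientation, the low dose was also set against 11 lesioned Drd1 arrays on a high regimen (3 then 6 mg/kg, also with benserazide at 12 mg/kg). A further comparison was with 10 mock-lesioned Drd1 arrays on saline, whose label gives ascorbate for the mock lesion. The same drug contrast was also read in indirect pathway neurons (iSPN, Drd2::EGFP-L10a, line CP101, 8 low-dose and 7 saline arrays). The series' design text gives 7 to 10 replicates per group, whereas the 2 groups compared here hold 12 and 11 arrays.

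Direct pathway neurons send inhibitory axons to the output nuclei of the basal ganglia and carry D1 dopamine receptors, which act through the G protein Golf and adenylyl cyclase to raise cyclic AMP. Protein kinase A and the MAP kinase ERK then act on transcription factors such as CREB and SRF, which switch on immediate early genes within minutes to hours. After loss of dopamine axons, D1 receptor signalling in these neurons is known to become supersensitive, and levodopa, once converted to dopamine, then evokes a strong transcriptional response.

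Array values were log2 expression as deposited, and array medians lay between 4.31 and 4.42. A gene was called when its adjusted p in limma was under 0.05. Changes are differences of log2 group means, low dose minus saline unless stated, with the standard error (SE) of a fit over all 77 arrays. Levels are given as the lowest, median and highest array of a group. Arrays correlated with the other arrays of their own group at a median r of 0.970 to 0.976 in the low-dose group and 0.974 to 0.976 in the saline group. Ordered by title number, the arrays form 7 stretches of rising mouse number, and the labels do not explain them. Of the low-dose arrays, 11 lie in stretch 3 and 1 in stretch 4, whereas 5 saline arrays lie in stretch 1 and 6 in stretch 2, so no stretch holds both groups. They are linked only through mock and high-dose arrays that share those stretches, and a fit with stretch as a fixed block rests on that link. Counts and p-values from that fit are given where they change a result.

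Cell type markers were checked first. The 12 tested dSPN markers averaged 8.58, 8.79 and 9.01 in low-dose arrays, against 8.66, 8.98 and 9.09 in saline arrays, where the same genes averaged 6.08, 6.48 and 6.77 and 6.15, 6.35 and 6.72 in low-dose and saline arrays of the Drd2 line. The 8 tested iSPN markers averaged 5.08, 5.46 and 5.85 in low-dose arrays, against 5.96, 6.27 and 6.54 in saline arrays, where the same genes averaged 9.46, 9.69 and 9.85 and 9.54, 9.87 and 10.05 in low-dose and saline arrays of the Drd2 line. Against the Drd2 line the arrays therefore stood higher in dSPN markers and lower in iSPN markers, as their label states. The iSPN marker means of the low-dose and saline dSPN arrays did not overlap. Oligodendrocyte markers (13 tested) averaged 5.73, 6.18 and 6.86 in low-dose arrays, against 6.82, 7.30 and 8.14 in saline arrays, and astrocyte markers (14 tested) 5.13, 5.33 and 5.84 in low-dose arrays, against 5.76, 5.93 and 6.42 in saline arrays. Both glial means were lower in the low-dose group with a narrow overlap of arrays. The purity of the capture was not tested. Fewer cells of a type, less RNA per cell and less carry-over of RNA from untagged cells into the capture cannot be told apart here. A fit with each array's oligodendrocyte marker mean as a covariate was therefore run, and its counts stand beside the gene groups that it moves. The covariate itself differs between the groups, so it takes up part of any difference between them.

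**Figure D1:**
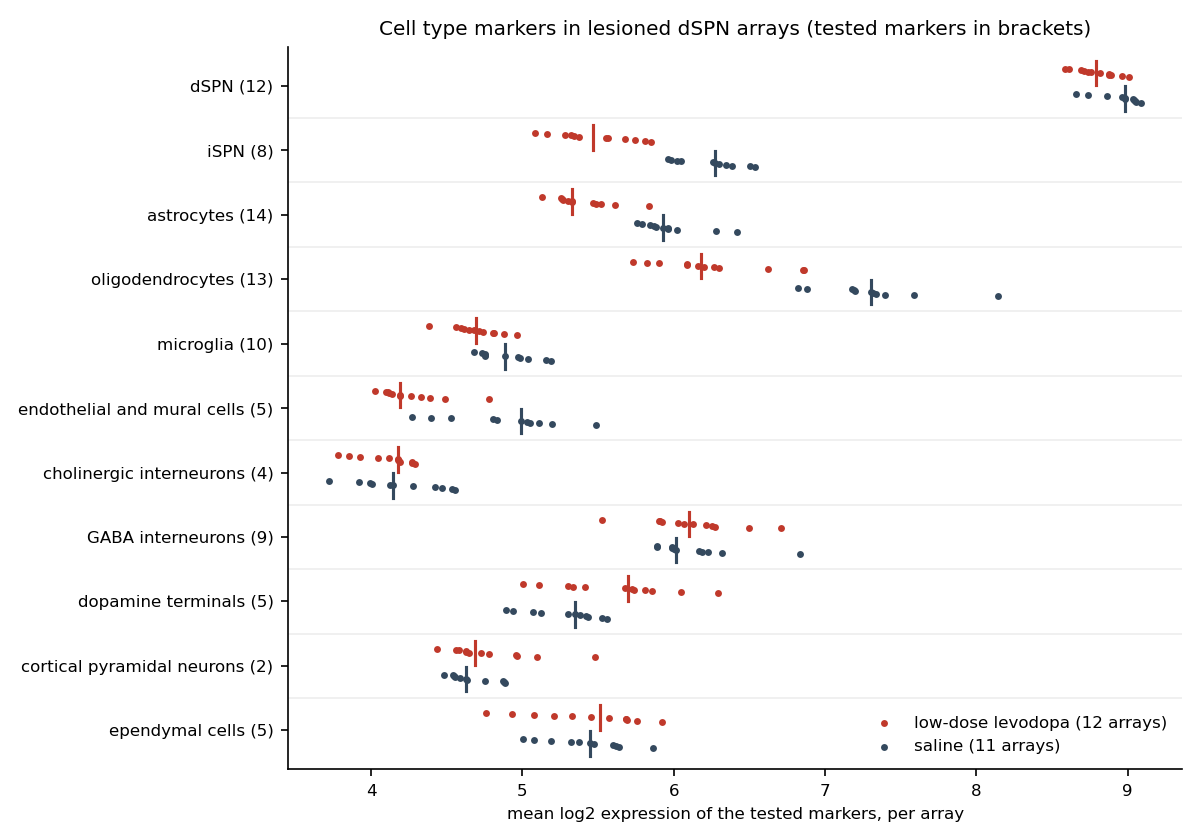
Mean log2 expression of the tested markers of each cell type (x axis), 1 point per lesioned dSPN array, low-dose levodopa (red, 12 arrays) above saline (dark blue, 11 arrays), with a bar at the group median and the number of tested markers in brackets. The iSPN, astrocyte and oligodendrocyte means sit lower in the low-dose arrays, and the dSPN markers stay near 9 in both groups.

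Low-dose levodopa was accompanied by a broad difference in ribosome-bound RNA. Of 13271 genes tested, 4531 (34.1%) were called, 2004 (15.1%) higher and 2527 (19.0%) lower, and the median change over all genes was -0.04. The largest changes were upward. Of the called genes 381 rose and 274 fell by more than 2-fold, 84 rose and 4 fell by more than 4-fold, and 29 rose by more than 8-fold. All low-dose arrays lay above all saline arrays in 415 genes (3.13%) and below them in 222 genes (1.67%). At an unadjusted p under 0.05 there were 5630 genes. With the stretch as a block, 1847 genes were called (932 higher, 915 lower), of which 1779 were among the 4531 and of the same direction. The changes themselves moved little under the block, with a median ratio of 0.97 to the pooled change, while the median SE was 0.24, against 0.14 without the block. The stretch terms of that fit were called in 0% of genes, and the stretch as a random block gave 5125 called genes. No stretch holds both groups, so these values do not settle how much of a change goes with the stretch. When every array was centred on its median, 2424 genes were called higher and 2059 lower, so the balance of small changes depends on the scaling.

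The 12 largest rises were in Nr4a3, Apold1, Nr4a2, Shisa2, Egr2, Tinf2, Ubash3b, Inhba, Fosl2, Ptgs2, Rnd3 and Sstr2, and in all 12 the low-dose arrays lay above every saline array. Nr4a3, an orphan nuclear receptor and immediate early gene, was measured at 11.13, 11.37 and 11.95 in low-dose arrays, against 4.88, 5.57 and 7.40 in saline arrays, a change of 5.55 ± 0.25 (adjusted p = 1.09e-30). Its fitted fold was 46.9, and every one of its 3 probe sets was called higher. Apold1, an apolipoprotein L-related protein known as an immediate early gene of blood vessel cells, was 7.90, 8.95 and 9.43 in low-dose arrays, against 3.52, 4.30 and 5.41 in saline arrays, a change of 4.46 ± 0.26 (adjusted p = 9.93e-25). Shisa2, which holds back maturation of Wnt and FGF receptors in the endoplasmic reticulum, was 9.41, 9.95 and 10.68 in low-dose arrays, against 4.55, 5.46 and 6.63 in saline arrays, a change of 4.40 ± 0.23 (adjusted p = 8.37e-27). All 12 low-dose arrays of Shisa2 therefore sat well apart from the saline arrays. Egr2, a zinc finger transcription factor, was 10.03, 10.42 and 10.75 in low-dose arrays, against 4.40, 6.22 and 7.93 in saline arrays, a change of 4.36 ± 0.29 (adjusted p = 1.56e-21). Tinf2, a subunit of the shelterin complex at chromosome ends, was 9.37, 10.15 and 10.81 in low-dose arrays, against 4.91, 5.63 and 6.41 in saline arrays, a change of 4.35 ± 0.22 (adjusted p = 3.18e-27). Ubash3b, a phosphatase known for damping T cell receptor signals, was 10.52, 11.07 and 11.54 in low-dose arrays, against 5.83, 6.84 and 7.51 in saline arrays, a change of 4.20 ± 0.19 (adjusted p = 1.72e-30).

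The rest of that group included secreted and signalling proteins. Inhba, which encodes the subunit of activin A, was 11.85, 12.38 and 12.59 in low-dose arrays, against 7.32, 8.20 and 9.12 in saline arrays, a change of 4.13 ± 0.23 (adjusted p = 1.31e-25). Ptgs2, the inducible cyclooxygenase COX-2, was 5.20, 6.78 and 7.87 in low-dose arrays, against 2.16, 2.74 and 3.33 in saline arrays, a change of 3.92 ± 0.21 (adjusted p = 6.02e-26). Its saline arrays all lay under 3.55, the filter value for dim genes, so its level there was close to the dim end of the arrays. Ptgs2 was therefore tested because of its level in other groups, and the size of its change is uncertain. Rnd3, a small GTP-binding protein, was 8.71, 9.65 and 10.17 in low-dose arrays, against 4.27, 5.57 and 6.61 in saline arrays, a change of 3.88 ± 0.24 (adjusted p = 7.20e-23). Sstr2, an inhibitory somatostatin receptor, was 9.24, 10.01 and 10.53 in low-dose arrays, against 4.46, 6.20 and 7.35 in saline arrays, a change of 3.71 ± 0.26 (adjusted p = 2.43e-20). The 4 genes encode a ligand, an enzyme, a cytoskeletal regulator and a receptor, beside the transcription factors among the largest rises, and none overlapped between groups.

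**Figure D2:**
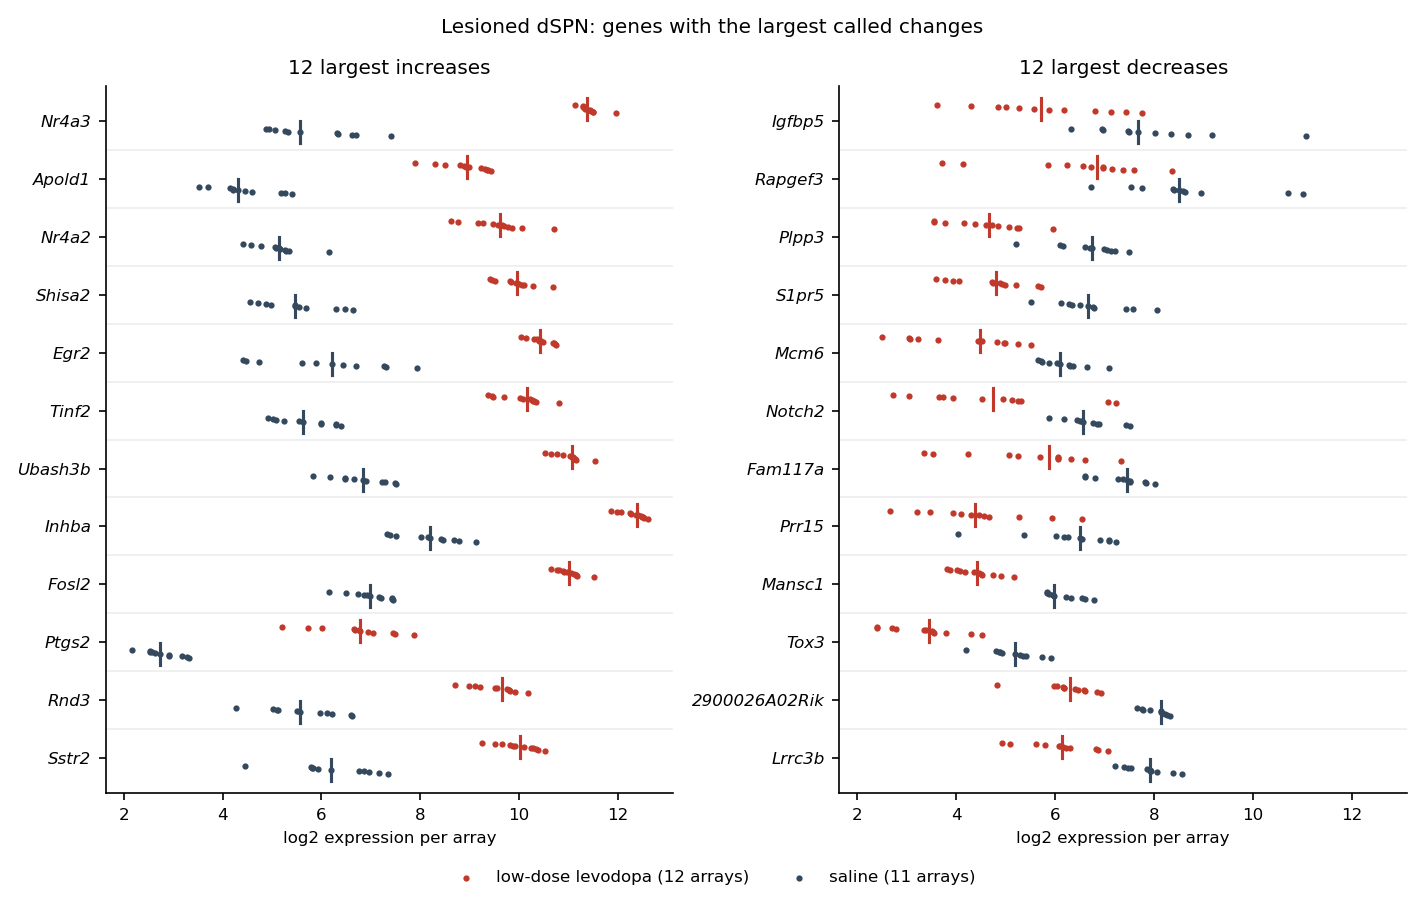
Log2 expression of the leading genes in lesioned dSPN arrays, 1 point per array with lines at group medians, low-dose levodopa (12 arrays) beside saline (11 arrays). The 12 highest genes separate the groups fully, while 8 of the 12 lowest genes overlap.

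Among transcription factors of the early response, the AP-1 and Maf list had 9 of 11 tested members called higher, 0 lower and 2 not called, with a median change of 0.65, against -0.04 over all genes. The calls of this list and of each list below stand against 15.1% higher and 19.0% lower over all genes tested. Fosl2, which encodes the Fos family member Fra-2, was 10.65, 11.01 and 11.51 in low-dose arrays, against 6.15, 6.98 and 7.44 in saline arrays, a change of 4.02 ± 0.17 (adjusted p = 3.06e-31). Jun, the partner of Fos proteins in AP-1, was 9.92, 10.23 and 10.95 in low-dose arrays, against 6.97, 7.61 and 7.99 in saline arrays, a change of 2.65 ± 0.18 (adjusted p = 5.74e-21). Both separated the groups fully. Fos itself was more variable, at 5.58, 7.13 and 9.15 in low-dose arrays, against 3.66, 4.36 and 5.85 in saline arrays, a change of 2.68 ± 0.38 (adjusted p = 1.77e-08), and its arrays overlapped. Fosb, whose splice form delta-FosB accumulates with repeated stimulation, changed by 3.26 ± 0.20 (adjusted p = 6.92e-23) without overlap. With the stretch as a block 6 members were called higher.

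All 3 Nr4a receptors rose, with a median of 4.43. Nr4a2, also called Nurr1 and best known in dopamine neurons, was 8.63, 9.61 and 10.71 in low-dose arrays, against 4.42, 5.15 and 6.16 in saline arrays, a change of 4.43 ± 0.26 (adjusted p = 1.99e-24). Of its 6 probe sets 4 were called higher and the other 2 were not called. Nr4a1 was 8.08, 9.55 and 10.65 in low-dose arrays, against 6.01, 7.19 and 7.69 in saline arrays, a change of 2.37 ± 0.25 (adjusted p = 9.41e-13). All 6 tested members of the Egr and Nab list were called higher, with a median of 1.24. Egr3 was 11.31, 11.56 and 11.91 in low-dose arrays, against 9.94, 10.11 and 10.52 in saline arrays, a change of 1.44 ± 0.09 (adjusted p = 4.38e-23), and Egr4 changed by 1.46 ± 0.11 (adjusted p = 1.25e-18). Egr1 changed by 1.05 ± 0.08 (adjusted p = 3.79e-18). None of these 3 Egr genes overlapped between groups, although their rises were smaller than that of Egr2.

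The CREB family held calls in both directions. Of 11 tested members 4 were higher and 4 lower, with a median of -0.05. Crem, whose short product ICER is induced by cyclic AMP and represses CREB targets, was 9.18, 9.80 and 10.39 in low-dose arrays, against 5.20, 6.59 and 7.18 in saline arrays, a change of 3.31 ± 0.19 (adjusted p = 2.16e-25). Atf3, a stress-induced member, was 4.59, 6.03 and 7.57 in low-dose arrays, against 2.51, 2.85 and 3.47 in saline arrays, a change of 2.90 ± 0.25 (adjusted p = 2.40e-16). Both separated the groups. All saline arrays of Atf3 lay under 3.55, the filter value for dim genes, so the gene was tested because of its level in other groups and the size of its change is uncertain. The lower members were weaker calls. Creb5 changed by -1.32 ± 0.35 (adjusted p = 0.0021, or 0.141 with the stretch as a block), and Crtc1, a CREB coactivator, by -0.71 ± 0.19 (adjusted p = 0.00255, or 0.188 with the stretch as a block). With the block 3 members were higher and 1 lower, and with the oligodendrocyte covariate 3 and 1.

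Other immediate early genes had 17 of 27 tested members higher, 1 lower and 9 not called, with a median of 0.90. Csrnp1, a nuclear factor, was 7.79, 8.53 and 9.51 in low-dose arrays, against 4.06, 5.41 and 6.22 in saline arrays, a change of 3.40 ± 0.23 (adjusted p = 2.00e-21). Pim1, a serine kinase that promotes cell survival, was 8.87, 9.47 and 9.89 in low-dose arrays, against 4.96, 6.21 and 6.65 in saline arrays, a change of 3.30 ± 0.19 (adjusted p = 2.63e-25). Ier3, an early response protein linked to survival, was 9.08, 9.59 and 10.51 in low-dose arrays, against 5.98, 6.38 and 6.94 in saline arrays, a change of 3.23 ± 0.15 (adjusted p = 6.36e-30). The 3 genes were separated in every array. The response was not shared by every early gene: Ier2, Klf2, Myc and Npas4, singled out after their values were seen, changed by -0.04, -0.01, -0.02 and 0.33 and were not called (adjusted p = 0.831, 0.958, 0.971 and 0.124). The 1 lower member, Zfp36, an RNA-binding protein that destabilises messages and is also named here after its value was seen, changed by -1.29 ± 0.37 (adjusted p = 0.00359). It was not called with the stretch as a block (adjusted p = 0.159) or with the oligodendrocyte covariate (adjusted p = 0.623).

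Genes known to follow synaptic activity had 11 of 15 tested members higher and 0 lower, with a median of 1.60. Nptx2, a secreted pentraxin that clusters AMPA receptors at synapses, was 9.49, 9.97 and 10.65 in low-dose arrays, against 5.06, 6.70 and 7.49 in saline arrays, a change of 3.62 ± 0.22 (adjusted p = 2.59e-23). Baz1a, a chromatin remodelling subunit, was 8.68, 9.10 and 10.15 in low-dose arrays, against 4.71, 5.47 and 6.75 in saline arrays, a change of 3.62 ± 0.30 (adjusted p = 9.43e-17). Arc, which governs removal of AMPA receptors from the synapse, changed by 3.42 ± 0.18 (adjusted p = 6.09e-27). None of the 3 overlapped between groups.

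MAP kinase phosphatases and other feedback inhibitors of this pathway were examined next. Of 20 tested phosphatases and inhibitors 11 were higher and 1 lower, with a median of 0.60. Dusp14 was 10.68, 11.27 and 11.64 in low-dose arrays, against 7.17, 7.80 and 8.75 in saline arrays, a change of 3.43 ± 0.18 (adjusted p = 1.76e-26). Dusp4, which acts on nuclear ERK, was 5.89, 7.15 and 7.71 in low-dose arrays, against 2.99, 3.79 and 5.30 in saline arrays, a change of 3.27 ± 0.25 (adjusted p = 4.87e-18). Dusp6, the ERK-specific phosphatase of the cytoplasm, changed by 1.99 ± 0.20 (adjusted p = 5.68e-13) and Dusp5, its nuclear counterpart, by 1.97 ± 0.18 (adjusted p = 2.63e-15). All 4 phosphatases separated the groups.

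Because cyclic AMP acts on transcription partly through CREB, promoters were searched for its site. The full cyclic AMP response element, TGACGTCA, was looked for on both strands in windows of the 250 bases before each RefSeq gene start (GRCm38.p6). A gene was counted if any of its windows held the motif. The full site was present in 478 of 27025 genes with a window (1.77%). Among tested genes with a window it was present in 318 of 10672 (2.98%), among genes called higher in 89 of 1625 (5.48%), and among genes called lower in 35 of 2019 (1.73%). The shorter core TGACG, which the full site contains, was present in 19.8% of all genes with a window. It was present in 30% of tested genes, in 39.4% of genes called higher and in 27.5% of genes called lower. The AP-1 motif TGANTCA was present in 7.82% of all genes with a window, 5.39% of tested genes, 4.86% of genes called higher and 5% of genes called lower. A match is a run of letters in the window and does not show that a factor binds there. Of the 12 genes with the highest changes, Tinf2 and Sstr2 carried the full site. Both windows are shown around the site, which is in capitals, 5′ to 3′ on the gene's strand.
Tinf2, chr14:55681826-55681913, reverse strand: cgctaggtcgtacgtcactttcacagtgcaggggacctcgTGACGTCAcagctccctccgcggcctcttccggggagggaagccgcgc
Sstr2, chr11:113619229-113619316, forward strand: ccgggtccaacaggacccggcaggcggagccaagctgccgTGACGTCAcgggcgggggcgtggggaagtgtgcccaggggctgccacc

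Of the called members of the immediate early and synaptic activity lists, 35 had a window, of which 26 (74.3%) held the core and 4 (Maff, Btg2, Errfi1 and Plk2) the full site. The site in Btg2, an antiproliferative early gene, and in Plk2, a kinase that weakens overactive synapses, is shown to set beside the previous pair, again with the full site in capitals.
Btg2, chr1:134079274-134079361, reverse strand: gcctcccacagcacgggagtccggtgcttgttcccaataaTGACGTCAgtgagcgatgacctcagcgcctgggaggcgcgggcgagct
Plk2, chr13:110394942-110395029, forward strand: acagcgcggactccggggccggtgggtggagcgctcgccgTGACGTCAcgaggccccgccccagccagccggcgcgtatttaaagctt
The Fos, Fosb and Nr4a1 windows held the core but not the full site. Of the other genes looked at singly, Nr4a2, Nr4a3 and Junb held the core, whereas Ptgs2 and Pdyn, which were also higher with the low dose, held no core. The 120 bases before the gene start are shown for Fos, Fosb and Nr4a1 as examples that hold the core there, with the core in capitals on the strand where it reads TGACG, or as CGTCA where it lies on the other strand.
Fos, chr12:85473770-85473889, forward strand: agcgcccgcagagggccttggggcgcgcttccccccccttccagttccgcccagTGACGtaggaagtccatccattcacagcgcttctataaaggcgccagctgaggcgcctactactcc
Fosb, chr7:19310046-19310165, reverse strand: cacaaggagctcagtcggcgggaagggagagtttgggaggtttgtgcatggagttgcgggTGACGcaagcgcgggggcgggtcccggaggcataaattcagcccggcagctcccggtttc
Nr4a1, chr15:101266726-101266845, forward strand: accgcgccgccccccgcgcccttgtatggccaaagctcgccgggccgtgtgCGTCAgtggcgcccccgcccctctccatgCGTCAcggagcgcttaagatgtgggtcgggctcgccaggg

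Neuropeptide precursors and granins had 8 of 20 tested members higher and 2 lower, with a median of 0.11. Vgf, a precursor of several secreted peptides, was 8.77, 9.56 and 9.81 in low-dose arrays, against 6.42, 6.77 and 8.69 in saline arrays, a change of 2.49 ± 0.17 (adjusted p = 2.91e-21). Scg2, the granin secretogranin II, was 10.68, 11.13 and 11.34 in low-dose arrays, against 8.33, 8.86 and 9.70 in saline arrays, a change of 2.15 ± 0.12 (adjusted p = 1.83e-25). Both separated the groups. Cartpt, the precursor of the CART peptide, was 5.71, 7.22 and 7.86 in low-dose arrays, against 4.11, 5.07 and 5.98 in saline arrays, a change of 1.97 ± 0.33 (adjusted p = 1.81e-06), and Nts, neurotensin, was 5.12, 6.18 and 8.09 in low-dose arrays, against 3.19, 4.88 and 5.82 in saline arrays, a change of 1.63 ± 0.29 (adjusted p = 5.07e-06). Arrays of these 2 peptides overlapped between groups. Among the classical striatal peptides, Pdyn, the dynorphin precursor of direct pathway neurons, changed by 1.61 ± 0.22 (adjusted p = 6.14e-09) with no overlap, and Tac1, the substance P precursor, by 0.36 ± 0.09 (adjusted p = 0.00145, or 0.0884 with the stretch as a block). Penk, the enkephalin precursor of indirect pathway neurons, was not called, with a change of 0.11 ± 0.06 (adjusted p = 0.169). With the block the list counted 6 higher and 1 lower, and with the oligodendrocyte covariate 5 and 1.

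Of 5 tested enzymes that cut and trim such precursors, 1 was higher and 1 lower (median -0.29). Pcsk1, prohormone convertase 1, was 7.45, 8.87 and 9.64 in low-dose arrays, against 3.85, 5.33 and 6.20 in saline arrays, a change of 3.59 ± 0.30 (adjusted p = 2.45e-16), with no overlap. Cpe, the carboxypeptidase that trims the cut ends, changed by -0.48 ± 0.09 (adjusted p = 2.19e-05).

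Genes of catecholamine synthesis and transport had 2 of 7 tested members higher and 1 lower (median -0.17). Th, tyrosine hydroxylase, was 5.30, 6.13 and 8.06 in low-dose arrays, against 3.90, 4.74 and 5.85 in saline arrays, a change of 1.49 ± 0.25 (adjusted p = 2.02e-06), and 1 low-dose array stood above 8. Slc18a2, the vesicular monoamine transporter, changed by 0.88 ± 0.33 (adjusted p = 0.0331, or 0.258 with the stretch as a block), and Maoa, monoamine oxidase A, by -0.56 ± 0.22 (adjusted p = 0.042, or 0.571 with the stretch as a block). Th alone of these 3 was still called with the block (adjusted p = 0.012).

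Receptors for dopamine, acetylcholine, adenosine, opioids and serotonin held more lower than higher calls. Of 16 tested, 1 was higher and 7 lower, with a median of -0.37. The 1 rise was in Htr1b, the inhibitory serotonin 1B receptor of striatal axon terminals, at 11.45, 11.78 and 12.04 in low-dose arrays, against 9.76, 10.38 and 10.64 in saline arrays, a change of 1.45 ± 0.10 (adjusted p = 4.28e-20). It separated the groups. Oprd1, the delta opioid receptor, changed by -1.33 ± 0.31 (adjusted p = 4.39e-04, or 0.0856 with the stretch as a block). Oprl1, the nociceptin receptor, changed by -1.07 ± 0.19 (adjusted p = 3.98e-06), and Htr2c, the serotonin 2C receptor, by -0.98 ± 0.20 (adjusted p = 3.86e-05, or 0.166 with the stretch as a block). Drd1 was not called, with a change of -0.26 ± 0.12 (adjusted p = 0.0979). Drd2 changed by -0.67 ± 0.17 (adjusted p = 8.59e-04, or 0.419 with the stretch as a block). The block left 2 receptors lower, and the oligodendrocyte covariate 8.

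Inside the cell, the cyclic AMP pathway had 6 of 27 tested members higher and 11 lower, with a median of 0.00. Akap12, a scaffold that anchors protein kinase A, was 5.21, 6.51 and 7.91 in low-dose arrays, against 2.42, 4.47 and 5.55 in saline arrays, a change of 2.34 ± 0.40 (adjusted p = 1.94e-06). Prkar2a, a regulatory subunit of protein kinase A, changed by 0.77 ± 0.12 (adjusted p = 4.35e-07). Adcy9, an adenylyl cyclase, changed by -1.12 ± 0.19 (adjusted p = 2.84e-06) and all 4 of its probe sets were called lower. Under the block 3 members were higher and 4 lower, and the same counts, 3 and 4, were obtained with the oligodendrocyte covariate.

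Phosphodiesterases, which break down cyclic nucleotides, had 3 of 11 tested members higher and 3 lower (median 0.09), a balance that became 4 and 2 with median centring. The changes were small: Pde4a changed by 0.48 ± 0.13 (adjusted p = 0.00193) and Pde7b by -0.31 ± 0.06 (adjusted p = 8.50e-06). Pde1c and Pde4b, at 0.58 ± 0.17 and 0.41 ± 0.07, were called without the block (adjusted p = 0.00502 and 6.89e-06) and not with it (adjusted p = 0.0907 and 0.0541). RGS proteins, which shorten G protein signals, had 6 of 16 tested members higher and 3 lower (median 0.12; 3 and 1 with the block, 4 and 2 with the covariate). Rgs2 was 12.00, 12.14 and 12.36 in low-dose arrays, against 11.39, 11.61 and 11.79 in saline arrays, a change of 0.57 ± 0.07 (adjusted p = 1.58e-09), the groups just separated. Rgs6 changed by 1.59 ± 0.29 (adjusted p = 8.12e-06) and Rgs14 by 0.85 ± 0.13 (adjusted p = 1.55e-07).

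At the synapse, glutamate receptors and scaffolds had 8 of 34 tested members higher and 9 lower, with a median of -0.05, and 10 higher and 7 lower with median centring. With the block 5 were higher and 8 lower. Without it the shares were 23.5% and 26.5%, not far above the 15.1% and 19.0% of all tested genes. Homer1, a scaffold whose short activity-induced form loosens receptor clusters, was 11.93, 12.40 and 12.73 in low-dose arrays, against 10.31, 10.56 and 10.90 in saline arrays, a change of 1.76 ± 0.09 (adjusted p = 5.95e-27). Of its 6 probe sets 3 were called higher and 3 were not called. Grm4, the inhibitory metabotropic receptor mGlu4, was 9.16, 9.85 and 10.25 in low-dose arrays, against 8.17, 8.71 and 9.15 in saline arrays, a change of 1.14 ± 0.14 (adjusted p = 1.98e-10). Grin2b, an NMDA receptor subunit, changed by -0.91 ± 0.15 (adjusted p = 1.01e-06) and Grik3, a kainate receptor subunit that is also an iSPN marker here, by -1.10 ± 0.16 (adjusted p = 5.70e-08). The other Grik3 probe set was not called (0.03, adjusted p = 0.908).

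GABA genes had 2 of 17 tested members higher and 5 lower (median -0.16), or 0 and 2 with the block. Gabrd, the delta subunit of extrasynaptic GABA-A receptors, was 9.26, 9.88 and 10.45 in low-dose arrays, against 10.53, 10.88 and 11.16 in saline arrays, a change of -1.01 ± 0.13 (adjusted p = 9.00e-10), with the groups apart. Gabrb2 changed by -0.38 ± 0.10 (adjusted p = 0.00282), and Gad1, which makes GABA, by 0.38 ± 0.10 (adjusted p = 0.00176, or 0.27 with the stretch as a block). Vesicle release genes had 6 of 33 tested members higher and 7 lower (median 0.04), a balance that turned to 10 and 6 with median centring and to 0 and 6 with the block. Their shares, 18.2% higher and 21.2% lower, lay near those of all tested genes, 15.1% and 19.0%. Sv2b, a synaptic vesicle glycoprotein, changed by -0.93 ± 0.12 (adjusted p = 1.17e-09) and Syt2, a calcium sensor for release, by -0.76 ± 0.15 (adjusted p = 3.31e-05).

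Ion channel lists held more lower than higher calls, with many members not called. Potassium channels had 4 of 41 tested members higher and 16 lower, with a median of -0.28. Kcnj9, a G protein-gated inward rectifier (GIRK3), was 5.85, 7.23 and 8.49 in low-dose arrays, against 8.53, 8.89 and 9.20 in saline arrays, a change of -1.58 ± 0.22 (adjusted p = 2.76e-08). Kcnn3, a small-conductance calcium-activated channel (SK3), was 8.95, 9.49 and 9.86 in low-dose arrays, against 7.67, 8.11 and 8.55 in saline arrays, a change of 1.36 ± 0.16 (adjusted p = 5.69e-11). These 2 channels moved in opposite directions, each without overlap of arrays. Kcnj3, the rectifier GIRK1, changed by -0.79 ± 0.19 (adjusted p = 4.26e-04), and Kcng1, a silent voltage-gated subunit, by -1.13 ± 0.22 (adjusted p = 2.83e-05, or 0.161 with the stretch as a block). With the block 1 potassium channel was higher and 8 lower, and with the oligodendrocyte covariate 2 and 10.

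Sodium and calcium channels had 2 of 21 tested members higher and 10 lower (median -0.25), or 0 and 7 with the block. Cacna1e, the R-type calcium channel, was 9.54, 9.84 and 9.97 in low-dose arrays, against 10.38, 10.57 and 10.86 in saline arrays, a change of -0.78 ± 0.09 (adjusted p = 4.78e-11), with no overlap. Cacna1h, a T-type channel, changed by -1.02 ± 0.21 (adjusted p = 4.72e-05) and Cacna1b, the N-type channel, by -0.61 ± 0.11 (adjusted p = 3.76e-06). Scn4b, a sodium channel beta subunit abundant in spiny projection neurons, changed by -0.60 ± 0.06 (adjusted p = 2.31e-12).

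Growth factor genes had 5 of 26 tested members higher and 7 lower (median 0.01; 2 and 4 with the block). These shares, 19.2% and 26.9%, were not far from the 15.1% and 19.0% of all tested genes. Beside Inhba, Hbegf, a ligand of the EGF receptor, was 8.15, 8.97 and 9.42 in low-dose arrays, against 6.42, 6.84 and 7.54 in saline arrays, a change of 2.03 ± 0.16 (adjusted p = 1.32e-17). Tgfb2 changed by 1.79 ± 0.35 (adjusted p = 2.19e-05, or 0.097 with the stretch as a block). The Notch and Wnt list had 2 of 29 higher and 6 lower (median -0.10), or 1 and 3 with the block and 3 and 2 with the covariate. Its share called lower, 20.7%, was near that of all tested genes, and its share called higher, 6.9%, was below it. Wnt7a, a Wnt ligand, was 3.99, 4.84 and 5.59 in low-dose arrays, against 5.87, 6.45 and 7.12 in saline arrays, a change of -1.67 ± 0.22 (adjusted p = 1.53e-09). Hey1, a Notch target, was 11.87, 12.28 and 12.55 in low-dose arrays, against 11.26, 11.42 and 11.62 in saline arrays, a change of 0.81 ± 0.06 (adjusted p = 1.37e-17). The 2 genes were separated in opposite directions.

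Among guidance genes more calls were lower than higher, and most members were not called. Of 44 tested semaphorins, plexins, ephrins and netrins with their receptors, 2 were higher and 16 lower, with a median of -0.41. The counts were 1 and 8 with the block, and 2 and 11 with the covariate. Nrp1, a semaphorin co-receptor, was 6.12, 7.39 and 7.80 in low-dose arrays, against 4.33, 5.58 and 6.53 in saline arrays, a change of 1.64 ± 0.25 (adjusted p = 1.35e-07). It was 1 of the 2 members called higher. Epha7, an ephrin receptor, changed by -0.82 ± 0.17 (adjusted p = 5.64e-05), and the repulsive ligand Sema3a by -0.95 ± 0.24 (adjusted p = 9.23e-04, or 0.1 with the stretch as a block). Axon and dendrite growth genes had 7 of 24 higher and 7 lower (median 0.03; 4 and 4 with the block, 5 and 3 with the covariate). Nefm, the middle neurofilament chain, changed by 0.67 ± 0.10 (adjusted p = 2.40e-07) and L1cam, an axon adhesion protein, by -0.69 ± 0.13 (adjusted p = 2.17e-05). Striatal lineage transcription factors had 1 of 25 higher and 8 lower (median -0.20; 4 lower with the block and 3 with the covariate). The 1 rise was in Six3, a homeobox factor, at 9.92, 10.22 and 10.42 in low-dose arrays, against 8.72, 9.32 and 9.57 in saline arrays, a change of 0.96 ± 0.09 (adjusted p = 2.00e-15). Foxo1 changed by -0.59 ± 0.08 (adjusted p = 1.27e-08), and both genes separated the groups.

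The circadian clock list held calls in both directions. It had 4 of 18 tested members higher and 9 lower, with a median of -0.36. Per2, a repressor of the core clock, was 7.55, 8.18 and 8.64 in low-dose arrays, against 5.75, 6.62 and 7.51 in saline arrays, a change of 1.56 ± 0.15 (adjusted p = 1.48e-13). Bhlhe40, a further repressor, was 9.90, 10.15 and 10.86 in low-dose arrays, against 8.40, 8.80 and 9.08 in saline arrays, a change of 1.45 ± 0.14 (adjusted p = 1.83e-14). Nr1d1, the nuclear receptor Rev-erb alpha, was 6.97, 7.70 and 8.29 in low-dose arrays, against 8.70, 9.02 and 9.31 in saline arrays, a change of -1.30 ± 0.12 (adjusted p = 2.37e-14). Each of these 3 separated the groups. Ciart, a circadian repressor, changed by -1.30 ± 0.18 (adjusted p = 6.54e-09). Mice were killed right after behavioural testing, and the labels give no clock time of death, so its part in these differences was not tested.

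Growth arrest and DNA damage genes had 7 of 16 tested members higher and 4 lower (median 0.13). Gadd45b, a stress sensor that also takes part in activity-dependent DNA demethylation, was 9.33, 9.75 and 10.13 in low-dose arrays, against 5.39, 6.62 and 8.0 in saline arrays, a change of 3.13 ± 0.24 (adjusted p = 4.16e-18). Cdkn1a, the cell cycle inhibitor p21, was 10.71, 10.98 and 11.75 in low-dose arrays, against 7.54, 8.38 and 9.49 in saline arrays, a change of 2.64 ± 0.22 (adjusted p = 3.03e-16). Gadd45a changed by 2.54 ± 0.28 (adjusted p = 1.33e-11) and Gadd45g by 1.59 ± 0.15 (adjusted p = 2.45e-14). The low-dose arrays of all 4 lay above the saline arrays.

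Genes of protein folding and energy supply moved by smaller amounts. Heat shock and DnaJ proteins had 8 of 23 higher and 2 lower, with a median of -0.01. Dnajb5, a co-chaperone, was 11.42, 11.73 and 12.29 in low-dose arrays, against 8.74, 9.25 and 10.00 in saline arrays, a change of 2.46 ± 0.12 (adjusted p = 1.01e-28), apart in every array. Chordc1 and Hspa4, both chaperone partners, changed by 0.65 ± 0.08 and 0.56 ± 0.07 (adjusted p = 1.68e-09 and 3.11e-10). Genes of endoplasmic reticulum stress had 4 of 23 higher and 3 lower (median 0.08; 2 and 1 with the block, 2 and 3 with the covariate), led by Ddit3, the transcription factor CHOP, with a change of 0.91 ± 0.11 (adjusted p = 2.88e-10). Sterol synthesis genes had 7 of 21 higher and 3 lower (median 0.20; 3 and 1 with the block, 4 and 1 with the covariate). Idi1 and Pmvk, which act early in the pathway, changed by 1.27 ± 0.12 and 1.08 ± 0.12 (adjusted p = 1.12e-13 and 1.38e-11), and Lss, which closes the sterol rings, by -1.02 ± 0.18 (adjusted p = 6.91e-06).

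Calls among cytosolic ribosomal protein genes were all upward. Of 43 tested, 35 were higher and 0 lower, with a median of 0.29, and the count was 21 with the block and 31 with the covariate. Rpl14 was 7.67, 8.20 and 9.01 in low-dose arrays, against 6.18, 6.92 and 7.93 in saline arrays, a change of 1.33 ± 0.20 (adjusted p = 1.15e-07), and Rps19 changed by 0.64 ± 0.09 (adjusted p = 7.56e-08). Ribosomal protein genes have many processed copies in the genome, so a probe set can also take up sequence from a copy. Respiratory chain and ATP synthase genes had 42 of 69 higher and 4 lower (median 0.15). Their count of higher members was 19 with the block and 13 with the covariate, and the part of the oligodendrocyte marker level in it was not tested further. Atp5g1, an ATP synthase subunit, changed by 0.74 ± 0.08 (adjusted p = 1.28e-11) and Uqcr11, of complex III, by 0.61 ± 0.08 (adjusted p = 3.14e-09). Proteasome genes had 10 of 32 higher and 2 lower (median 0.14), but 2 higher with the block and 1 higher and 3 lower with the covariate. Psmd8 changed by 0.48 ± 0.10 (adjusted p = 9.43e-05).

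Histone-modifying enzymes held calls in both directions, with 7 of 36 tested members higher and 15 lower (median -0.24). With the block 2 were higher and 4 lower, and with the covariate 4 and 7. Kdm7a, a histone demethylase, was 11.19, 11.34 and 11.64 in low-dose arrays, against 9.75, 10.01 and 10.28 in saline arrays, a change of 1.40 ± 0.10 (adjusted p = 5.54e-20), with the groups apart. Kmt2c, a histone methyltransferase, was 8.66, 9.22 and 10.12 in low-dose arrays, against 9.76, 10.49 and 10.98 in saline arrays, a change of -1.22 ± 0.15 (adjusted p = 8.53e-10), with some overlap.

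**Figure D3:**
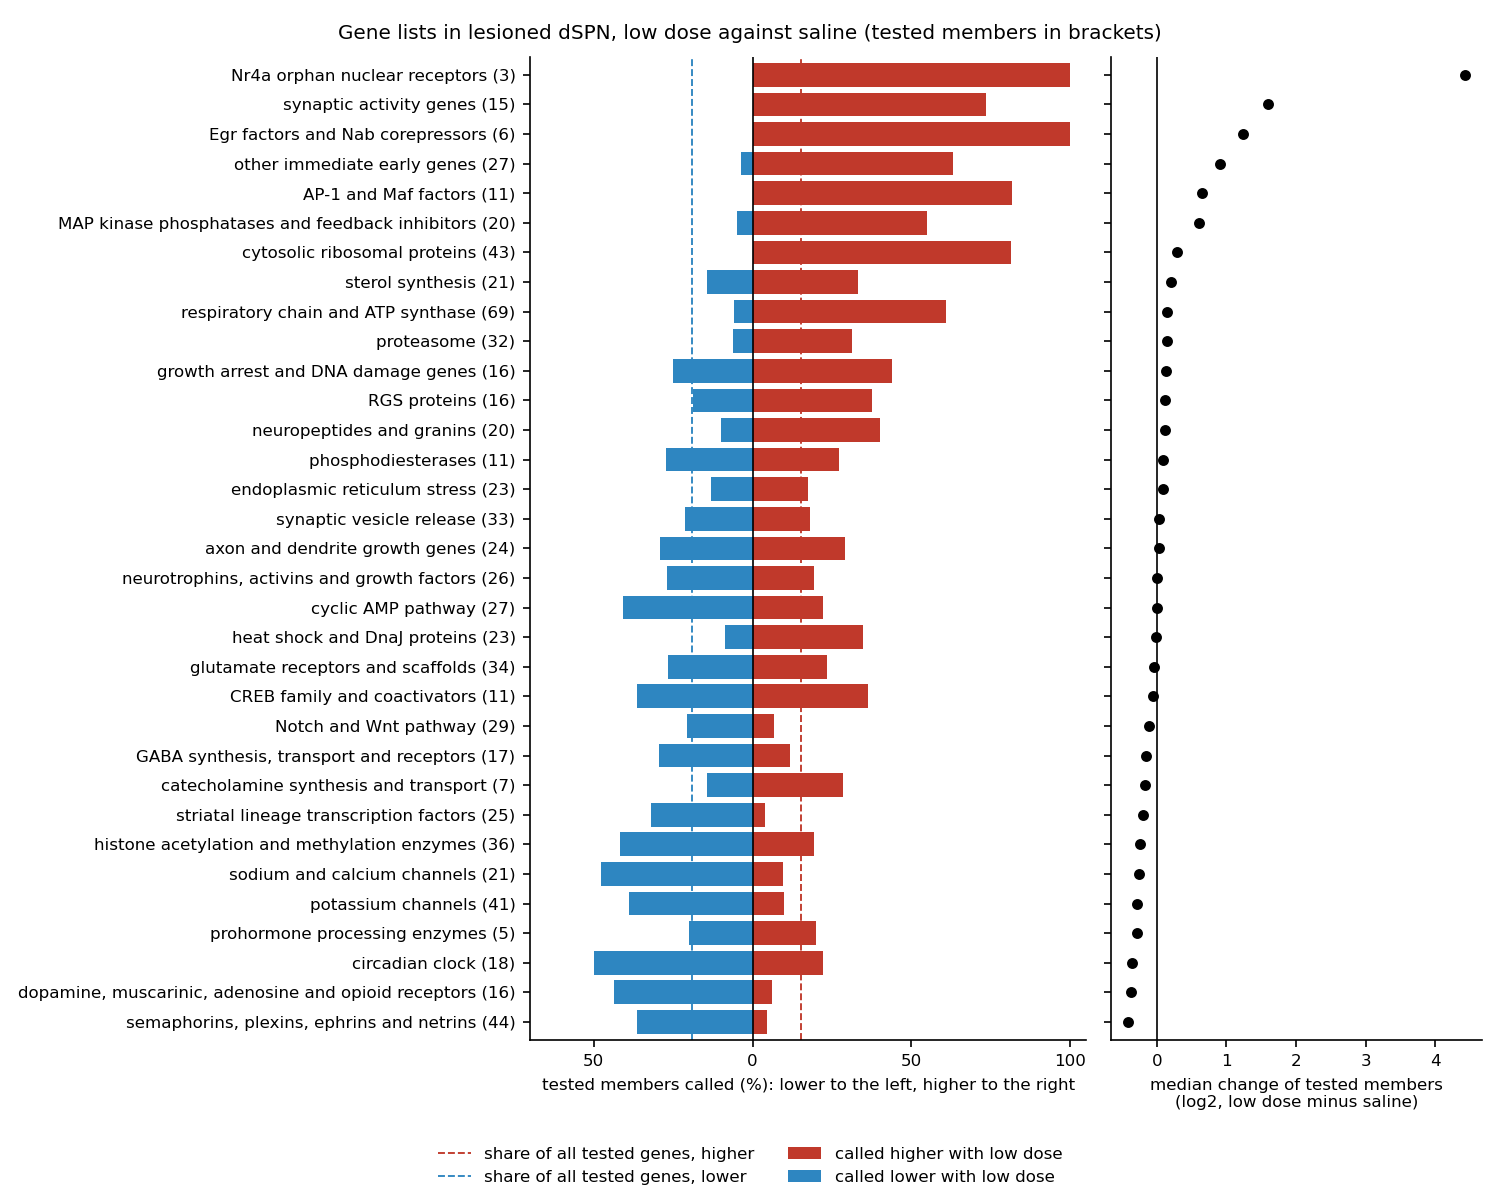
Share of the tested members of each gene list called higher and called lower in low-dose against saline dSPN arrays (x axis, percent), 1 row per list. Dashed lines mark the shares of all tested genes, 15.1% higher and 19.0% lower. The Nr4a and Egr lists are called higher throughout, ribosomal proteins in 35 of 43 members, and guidance genes and ion channels have more members called lower than higher, with under 50% of each list called lower.

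Among the markers, 11 of 13 tested oligodendrocyte genes were lower (median -1.02), as were 5 of 8 iSPN genes (median -0.81) and 4 of 14 astrocyte genes (median -0.32), with 0 higher in each. Cldn11, a protein of myelin tight junctions, was 6.01, 6.50 and 7.20 in low-dose arrays, against 7.38, 8.01 and 8.74 in saline arrays, a change of -1.38 ± 0.19 (adjusted p = 7.95e-09). Mag, the myelin-associated glycoprotein, changed by -1.53 ± 0.30 (adjusted p = 2.82e-05). Slc1a2, the glial glutamate transporter, was 6.20, 7.62 and 8.32 in low-dose arrays, against 8.54, 8.82 and 9.56 in saline arrays, a change of -1.32 ± 0.24 (adjusted p = 8.28e-06). Gja1, the astrocyte connexin 43, changed by -1.53 ± 0.30 (adjusted p = 2.46e-05). Gpr6, an iSPN receptor, changed by -1.18 ± 0.21 (adjusted p = 4.18e-06). The groups were apart for Cldn11 and Slc1a2. Of the 12 tested dSPN markers 2 were higher, which were Pdyn and Tac1, and 3 lower, which were Gpr149, Chrm4 and Slc35d3. Slc35d3 was not called with the block (adjusted p = 0.182). Gpr149, an orphan receptor, was 3.27, 4.31 and 4.89 in low-dose arrays, against 5.13, 5.47 and 6.54 in saline arrays, a change of -1.41 ± 0.22 (adjusted p = 1.61e-07), and Chrm4, the muscarinic M4 receptor of direct pathway neurons, changed by -0.61 ± 0.20 (adjusted p = 0.0137, or 0.27 with the stretch as a block). Markers of endothelial and mural cells, microglia, cholinergic and GABA interneurons, cortical neurons and ependymal cells had at most 1 call in a direction each, and of 5 tested markers of dopamine terminals 2 were higher, Th and Slc18a2. With the block, 8 oligodendrocyte, 3 astrocyte and 2 iSPN markers were lower, and 1 dSPN marker was higher and 1 lower.

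The 12 largest falls were in Igfbp5, Rapgef3, Plpp3, S1pr5, Mcm6, Notch2, Fam117a, Prr15, Mansc1, Tox3, 2900026A02Rik and Lrrc3b. They were smaller than the rises and less separated: 4 had no overlap between groups and 8 did. Igfbp5, a binding protein of insulin-like growth factors, was 3.61, 5.72 and 7.76 in low-dose arrays, against 6.31, 7.68 and 11.07 in saline arrays, a change of -2.20 ± 0.50 (adjusted p = 3.17e-04). Rapgef3, the cyclic AMP-activated exchange factor Epac1, was 3.71, 6.85 and 8.36 in low-dose arrays, against 6.72, 8.50 and 11.01 in saline arrays, a change of -2.18 ± 0.52 (adjusted p = 4.97e-04), and was not called with the block (adjusted p = 0.49). Of its 4 probe sets 3 were called lower and 1 was not called. S1pr5, a sphingosine 1-phosphate receptor best known in oligodendrocytes, was 3.59, 4.81 and 5.72 in low-dose arrays, against 5.51, 6.67 and 8.05 in saline arrays, a change of -2.04 ± 0.31 (adjusted p = 1.63e-07). Low-dose and saline arrays overlapped in each of these 3 genes.

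The separated genes of this group were Mcm6, Mansc1, 2900026A02Rik and Lrrc3b. Mcm6, a subunit of the replication helicase, was 2.50, 4.48 and 5.51 in low-dose arrays, against 5.66, 6.10 and 7.09 in saline arrays, a change of -2.0 ± 0.42 (adjusted p = 9.59e-05). A further Mcm6 probe set was not called (-0.49, adjusted p = 0.109). Mansc1 was 3.81, 4.41 and 5.17 in low-dose arrays, against 5.84, 5.98 and 6.78 in saline arrays, a change of -1.79 ± 0.26 (adjusted p = 3.24e-08). The RIKEN transcript 2900026A02Rik was 4.81, 6.30 and 6.92 in low-dose arrays, against 7.65, 8.14 and 8.33 in saline arrays, a change of -1.78 ± 0.21 (adjusted p = 1.06e-10), and Lrrc3b, a leucine-rich repeat protein, changed by -1.76 ± 0.26 (adjusted p = 5.59e-08). Notch2, the receptor, changed by -1.98 ± 0.46 (adjusted p = 3.66e-04) and Tox3, an HMG-box factor, by -1.79 ± 0.27 (adjusted p = 1.26e-07). The other Notch2 probe set was not called (-0.36, adjusted p = 0.135). With the block, Rapgef3, Plpp3, Fam117a and Prr15 were no longer called (adjusted p = 0.49, 0.0695, 0.291 and 0.414), against none of the 12 largest rises. Plpp3 encodes a lipid phosphatase that is abundant in astrocytes, and its change was -2.08 ± 0.38. With the oligodendrocyte covariate Igfbp5, Rapgef3, Plpp3, Notch2 and Prr15 were no longer called.

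The named genes were taken as a whole across the stretch block, the oligodendrocyte covariate and other probe sets. Of 160 called genes named by the rule, 88 were higher and 72 lower, all 160 kept their sign with the block and 125 were still called, 78 of the higher and 47 of the lower. With the oligodendrocyte covariate 34 kept their sign but were no longer called, and 1, Id2, changed sign. Groups did not overlap in 62 of the higher and 15 of the lower genes. Over all genes tested, low-dose arrays lay above all saline arrays in 3.13% and below them in 1.67%. The 160 genes were chosen with a called change in this same comparison. That choice raises these counts and the number still called with the block. Of 88 named genes with more than 1 probe set, 47 had every probe set called in the same direction, 41 had at least 1 that was not called, and 0 had one called in the opposite direction.

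The high regimen was then set against the low one in lesioned dSPN, which shares the low-dose arrays with the previous comparison. Of the genes tested 6.80% were called, 3.14% (417) higher and 3.66% (486) lower with the high dose, and 56 rose and 23 fell by more than 2-fold. With the block 174 were called. Of the 12 genes with the largest low-dose rises, 4 were higher still with the high dose and 8 were not called. Nr4a2 was 10.50, 11.14 and 11.36 in high-dose arrays, against 8.63, 9.61 and 10.71 in low-dose arrays, a difference of 1.55 ± 0.26 (adjusted p = 2.25e-05). Ptgs2 was 7.86, 8.34 and 8.98 in high-dose arrays, against 5.20, 6.78 and 7.87 in low-dose arrays, a difference of 1.67 ± 0.21 (adjusted p = 4.46e-08). Tinf2 and Sstr2 differed by 1.13 ± 0.22 and 1.04 ± 0.26 (adjusted p = 3.61e-04 and 0.00614, or 0.0736 and 0.16 with the stretch as a block). The early gene lists had calls in the same direction, with 6 of 11 AP-1 and Maf, 8 of 27 other immediate early and 7 of 15 synaptic activity genes higher and 0 lower, whereas the Egr and Nab list had 0 of 6 called in either direction. With the block the higher counts were 2, 1 and 3.

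The genes furthest apart between regimens were only partly those of the low-dose response. The 8 highest were Lipg, Trh, Serpinb2, Sdcbp2, Gprc5a, Ptgs2, Pdlim1 and Tgfb1. Lipg, endothelial lipase, was 5.73, 6.92 and 8.18 in high-dose arrays, against 3.51, 5.05 and 6.32 in low-dose arrays, a difference of 2.11 ± 0.25 (adjusted p = 8.75e-09). Trh, thyrotropin-releasing hormone, was 4.70, 6.11 and 6.78 in high-dose arrays, against 3.67, 4.02 and 5.12 in low-dose arrays, a difference of 1.92 ± 0.23 (adjusted p = 8.75e-09). Between low dose and saline Trh was not called, with a change of -0.11 ± 0.23 (adjusted p = 0.758). Serpinb2, a protease inhibitor, differed by 1.80 ± 0.21 (adjusted p = 4.94e-09) and Tgfb1, a cytokine, by 1.58 ± 0.30 (adjusted p = 2.32e-04). Among the 8 lowest were Arntl, the core clock activator BMAL1, with a difference of -1.23 ± 0.18 (adjusted p = 1.78e-06), and Ddit4l, an inhibitor of mTOR signalling, with -1.17 ± 0.18 (adjusted p = 4.85e-06). Gng2, a G protein gamma subunit, differed by -1.44 ± 0.24 (adjusted p = 2.25e-05, or 0.0941 with the block).

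Of the 12 genes read in every comparison, Th, Penk, Arc, Junb and Nr4a1 were higher with the high than with the low dose. Th was 7.03, 7.39 and 8.37 in high-dose arrays, against 5.30, 6.13 and 8.06 in low-dose arrays, a difference of 1.36 ± 0.25 (adjusted p = 1.60e-04). Penk was 11.73, 11.90 and 12.05 in high-dose arrays, against 11.26, 11.56 and 11.68 in low-dose arrays, a difference of 0.37 ± 0.06 (adjusted p = 7.62e-06), although it was not called between low dose and saline. Penk is an iSPN marker here, and the part of RNA carried over from iSPN in its level was not tested. The differences were 0.74 ± 0.18 for Arc, 0.45 ± 0.10 for Junb and 0.77 ± 0.25 for Nr4a1 (adjusted p = 0.00481, 0.00269 and 0.0389), and these 3 were not called with the block (adjusted p = 0.0681, 0.135 and 0.523). Egr1 differed by 0.00 ± 0.08 (adjusted p = 0.996) and Pdyn by 0.49 ± 0.22 (adjusted p = 0.175), so neither was called. Missing the threshold does not show that the regimens act alike on those genes.

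**Figure D4:**
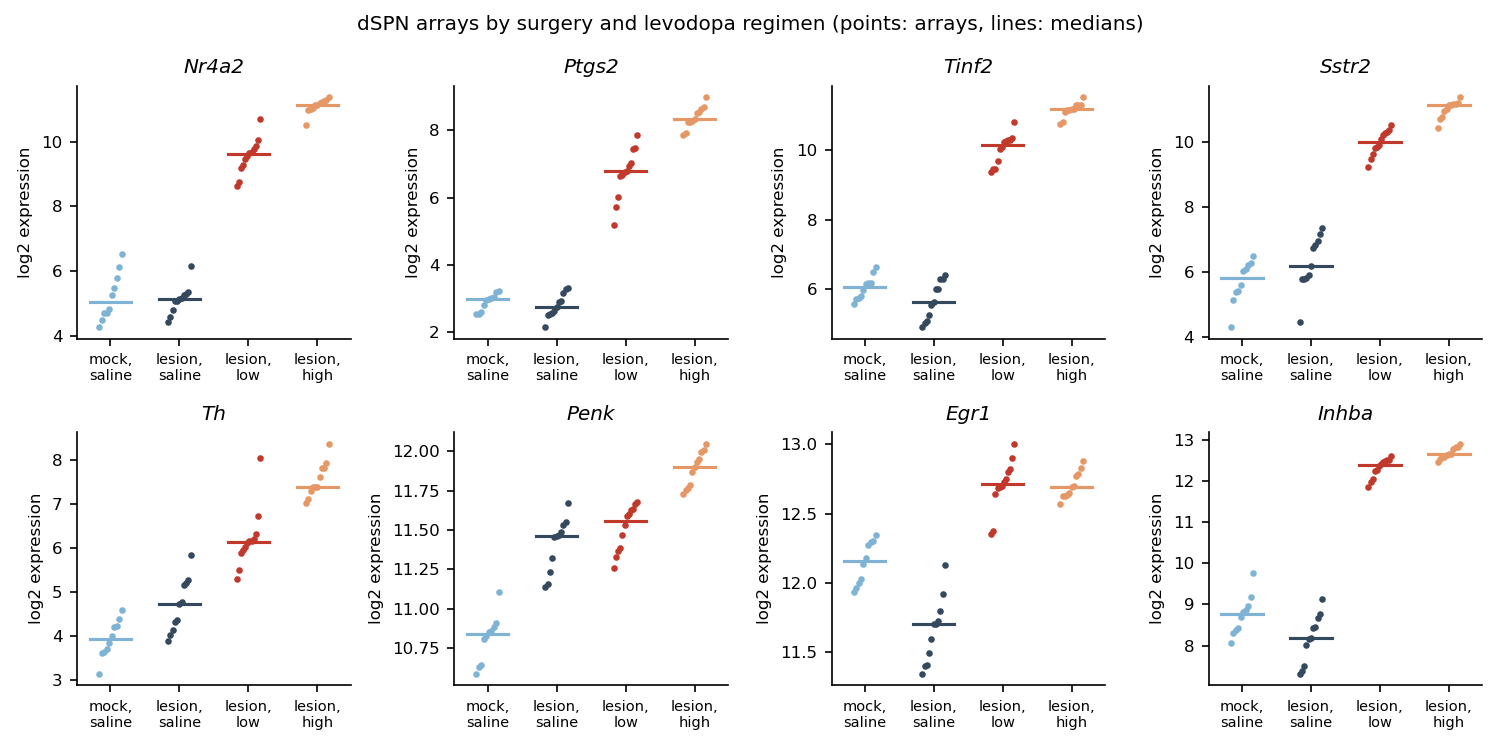
Log2 expression of 8 genes in dSPN arrays (1 point per array, line at the median) of mock-lesioned mice on saline (10) and lesioned mice on saline (11), low-dose (12) and high-dose levodopa (11). Nr4a2, Ptgs2, Tinf2, Sstr2 and Th are higher with the high than the low dose, and Egr1 is not called between regimens. Penk, also an iSPN marker here, is higher after the lesion and again with the high dose.

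Levels were also set beside mock-lesioned mice, to see where the low-dose group stood relative to intact dopamine innervation. Low dose against mock gave 4004 called genes (30.2%), 12.5% higher and 17.7% lower, and lesioned saline against mock gave 329 (2.48%), 0.640% higher and 1.84% lower, or 2599 and 88 called genes with the block. These comparisons share arrays with the first one, so their values are given side by side only. The 12 largest low-dose rises were all higher than in mock arrays too. They and the 12 largest falls were chosen by a change that uses the same low-dose arrays. That choice raises the counts against mock given here for both sets. Sstr2 was 9.24, 10.01 and 10.53 in low-dose arrays, against 4.32, 5.83 and 6.51 in mock arrays, a difference of 4.28 ± 0.27 (adjusted p = 1.04e-22). Mapkapk3, a kinase activated by p38 MAP kinase, was 7.78, 8.60 and 10.14 in low-dose arrays, against 4.00, 4.62 and 7.40 in mock arrays, a difference of 3.88 ± 0.44 (adjusted p = 2.35e-11). Of the 12 largest falls 10 were below mock and 2 were not called, Mcm6 at -0.51 ± 0.43 (adjusted p = 0.401) and Prr15 at -0.29 ± 0.57 (adjusted p = 0.749). With the block 7 of the 10 were called, without Rapgef3, Plpp3 and Fam117a (adjusted p = 0.426, 0.0895 and 0.083).

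Some genes that rose with the low dose had been lower in lesioned saline than in mock arrays. Vgf was 6.42, 6.77 and 8.69 in lesioned saline arrays, against 8.45, 9.15 and 9.67 in mock arrays, a difference of -2.14 ± 0.17 (adjusted p = 3.74e-15), and low dose against mock differed by 0.35 ± 0.17 (adjusted p = 0.116). Egr2 and Nr4a3 differed by -1.74 ± 0.30 and -1.61 ± 0.26 between lesioned saline and mock arrays (adjusted p = 6.39e-05 and 1.29e-05), and by 2.62 ± 0.30 and 3.94 ± 0.25 between low dose and mock (adjusted p = 2.77e-11 and 6.36e-22). Both therefore stood above mock with the low dose. Wnt8b, a Wnt ligand, changed by -1.12 ± 0.39 between low dose and saline (adjusted p = 0.0201, or 0.114 with the stretch as a block). Low-dose arrays lay at 2.95, 3.20 and 3.63, lesioned saline arrays at 3.26, 4.42 and 5.68, and mock arrays at 4.01, 6.19 and 8.18. The low-dose median lay under 3.55, the filter value for dim genes, so the size of the change is uncertain. A further Wnt8b probe set was not called between low dose and saline (-0.15, adjusted p = 0.529). Low dose against mock differed by -2.82 ± 0.40 (adjusted p = 3.86e-08) and lesioned saline against mock by -1.70 ± 0.41 (adjusted p = 0.00816) for this gene, the second of which was not called with the block (adjusted p = 0.517). Penk was 11.14, 11.46 and 11.67 in lesioned saline arrays, against 10.59, 10.84 and 11.11 in mock arrays, a difference of 0.60 ± 0.06 (adjusted p = 5.35e-11). Whether RNA carried over from iSPN has a part in this difference was not tested.

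The same drug contrast was read in iSPN arrays. The difference between lines was tested as an interaction, the low-dose change in dSPN minus that in iSPN, and was called in 1961 genes (14.8%), 6.99% more positive and 7.79% more negative in dSPN, or 703 with the block. All 12 of the largest dSPN rises had a called interaction, a count that their choice by the dSPN change, which is part of the interaction, largely fixes. Fosl2 was 8.54, 9.87 and 10.04 in low-dose iSPN arrays, against 9.42, 9.58 and 9.90 in saline iSPN arrays, a change of -0.01 ± 0.22 (adjusted p = 0.988), and its interaction was 4.04 ± 0.28 (adjusted p = 1.36e-19). Shisa2 changed by 0.04 ± 0.29 (adjusted p = 0.969) in iSPN, with an interaction of 4.36 ± 0.37 (adjusted p = 1.18e-15). Nr4a2, Egr2 and Inhba were the 3 of the 12 also called higher in iSPN, by 1.60 ± 0.32 (adjusted p = 6.89e-04), 1.14 ± 0.36 (adjusted p = 0.0499) and 1.02 ± 0.28 (adjusted p = 0.0228), each less than in dSPN. Egr2 and Inhba were not called in iSPN with the block (adjusted p = 0.192 and 0.0683).

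Across the 160 called named genes, 98 had a called interaction, of which 62 were called with the block. All 160 were chosen with a called dSPN change, which is part of the interaction, so their choice raises this count. The share over all genes tested was 14.8%. In iSPN 21 of the 160 were called in the same direction and 5 in the opposite direction, of which 16 and 4 were called with the block. The share of all tested genes called in iSPN is not given here, so no excess is read from these counts. Those 5 were Nr4a1, Vgf, Scg2, Egr1 and Rgs2, which were higher with the low dose in dSPN and lower in iSPN. Vgf was 7.99, 8.57 and 9.39 in low-dose iSPN arrays, against 9.84, 9.95 and 10.26 in saline iSPN arrays, a change of -1.36 ± 0.21 (adjusted p = 7.24e-06). Nr4a1 was 6.97, 8.86 and 9.04 in low-dose iSPN arrays, against 9.37, 10.07 and 10.71 in saline iSPN arrays, a change of -1.55 ± 0.30 (adjusted p = 4.93e-04). Scg2, Egr1 and Rgs2 changed by -0.94 ± 0.15 (adjusted p = 1.92e-05), -0.34 ± 0.10 (adjusted p = 0.0338) and -0.65 ± 0.09 (adjusted p = 1.27e-06) in iSPN, and Egr1 was not called there with the block (adjusted p = 0.0987). The interactions of these 5 ranged from 1.22 to 3.92.

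Other named genes were called in the same direction in both lines. Pdyn changed by 1.58 ± 0.27 (adjusted p = 6.81e-05) in iSPN, with an interaction of 0.03 ± 0.35 (adjusted p = 0.975). It is a dSPN marker, and carry-over of dSPN RNA into the Drd2 line arrays was not tested. Cdkn1a changed by 1.98 ± 0.28 (adjusted p = 1.23e-06), with an interaction of 0.65 ± 0.36 (adjusted p = 0.236), and Gadd45g by 1.51 ± 0.19 (adjusted p = 3.90e-08), with an interaction of 0.08 ± 0.24 (adjusted p = 0.883). Chordc1 changed by 0.79 ± 0.10 (adjusted p = 2.55e-07) in iSPN, with an interaction of -0.13 ± 0.13 (adjusted p = 0.569). None of these 4 interactions was called, which does not show that the changes are equal. Among falls, none of the 12 largest in dSPN was called in iSPN, and 7 had a called interaction, of which 2, S1pr5 and 2900026A02Rik, were still called with the block. Their choice by the dSPN change also raises that count. S1pr5 changed by 0.53 ± 0.39 (adjusted p = 0.53) in iSPN, with an interaction of -2.57 ± 0.50 (adjusted p = 8.26e-05). The interactions of Rapgef3, Mcm6, Fam117a, Tox3, Lrrc3b and Niban3, at -3.28, -2.64, -2.49, -1.71, -1.25 and -2.31, were not called with the block (adjusted p = 0.509, 0.123, 0.102, 0.115, 0.567 and 0.136).

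**Figure D5:**
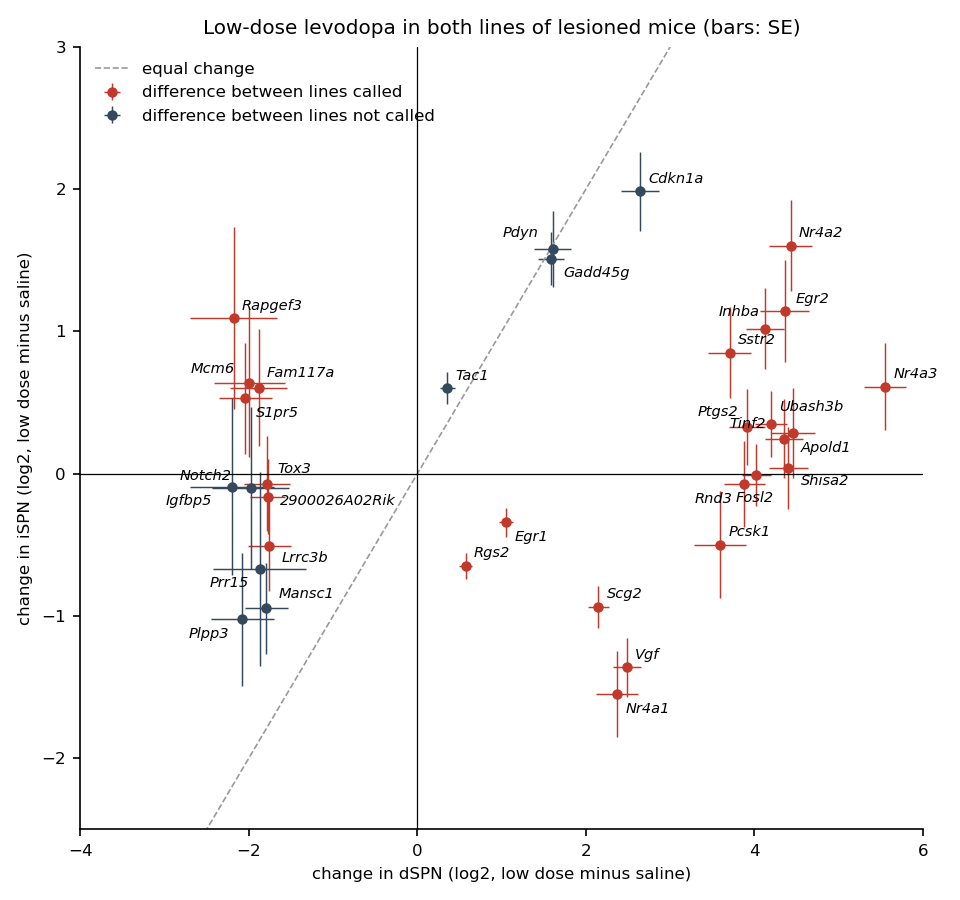
Low-dose minus saline change (log2) in dSPN (x axis) and in iSPN (y axis) of the 12 genes with the largest dSPN rises, the 12 with the largest falls and 10 other genes named in the text, 1 labelled point per gene with SE bars and a line of equal change. Most rises lie near 0 on the iSPN axis, Cdkn1a, Gadd45g and Pdyn lie near the line, and Nr4a1, Vgf and Scg2 lie below 0 in iSPN.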

How the data were processed

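TRAP-purified RNA of single mice was hybridised to Affymetrix mouse 430 2.0 arrays. Values were deposited as normalized log2 expression of probe sets, and RMA and the affy package were used per the submitters' processing notes, with versions not given in the sources used here. The table held 45101 probe sets, of which 34958 carried 1 gene symbol, 932 several and 9211 none, and the last 2 kinds were left out. Each gene was read from its probe set with the highest mean over all arrays. The test covered 13271 of 18194 genes, those averaging over the 40th percentile of probe set means (3.55).

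All 77 arrays in 8 groups were fitted with lmFit and eBayes in limma 3.58.1 (R 4.3.3), with 69 residual degrees of freedom, no covariate, two-sided tests and Benjamini-Hochberg adjustment over all genes of a comparison. Pooling the groups gives 1 estimate of spread. The fit was tested on simulated data. Tables and figures were made with Python 3.11.15, pandas 2.3.3 and matplotlib 3.10.9. Precision is limited by how many arrays there are. For low dose against saline the median SE was 0.24 with the stretch as a block, against 0.14 without it. No scanner file or detection call was used.

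Arrays were grouped by the submitters' cell type, lesion and drug labels. Replicates are separate mice. The gene lists, the comparison and the rule for named genes were chosen with earlier results of these data known. For low dose against saline the rule names the 12 highest and 12 lowest called changes, up to 4 called members of each list with the largest absolute change, 12 genes read in every comparison (Th, Nr4a1, Egr1, Arc, Junb, Fosb, Fos, Tac1, Penk, Pdyn, Drd2 and Drd1), and the 8 (high against low) or 6 (low against mock, interaction) highest and lowest of the other comparisons. Lists are described by counts and medians without a test of the list.

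Alternatives were the stretch as a fixed or random block, dSPN arrays alone, both groups alone, saline or low-dose arrays of 1 stretch, array weights, an intensity trend with a robust prior, no filter, a stricter filter at the 60th percentile, the mean of a gene's probe sets, every probe set, quantile normalization, median centring, the oligodendrocyte marker mean as a covariate, and limma's treat against 2-fold. Fits within a single stretch were chosen after seeing the data. Promoter windows are RefSeq GRCm38.p6, matched by symbol to 10672 of the 13271 tested genes, and their coordinates are 1-based.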

Additional observations from a re-analysis of the deposited data

Results flagged for a closer look

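The low-dose effect differed between the lines, by the interaction term of the fit (limma adjusted p under 0.05), in 6 named genes with the highest and 6 with the lowest interaction and in 7 of the 12 genes read in every comparison. The 6 highest and 6 lowest were picked among genes with a called interaction, so their calls are fixed by that choice. Over all genes tested 14.8% had a called interaction. Given as the dSPN change minus the iSPN change in log2 units, the highest were Nr4a3 at 4.94, Shisa2 at 4.36, Apold1 at 4.17, Tinf2 at 4.1, Pcsk1 at 4.09 and Fosl2 at 4.04. The lowest were Rapgef3 at -3.28, Mcm6 at -2.64, S1pr5 at -2.57, Fam117a at -2.49, Tmem86a at -2.48 and Niban3 at -2.31, and Rapgef3, Mcm6, Fam117a and Niban3 were not called with the stretch as a block. Among the genes read throughout, the interaction was 3.92 for Nr4a1, 3.27 for Fos, 2.94 for Arc, 2.26 for Fosb, 1.39 for Egr1, 0.829 for Junb and 0.295 for Penk, the last not called with the block.

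Levels of the 12 genes read throughout were also checked for a single array far from its group. Of 36 groups of values, 3 held such an array, where chance alone gives about 1 per 20 groups. In mock-lesioned dSPN arrays the gap between 1 Arc value and its neighbour was 0.487 of the group's range. In low-dose iSPN arrays the gap for Drd2 was 0.647 of the range, and in saline iSPN arrays the gap for Tac1 was 0.668. None of the 3 lies in the low-dose or saline dSPN groups, which hold over 10 arrays each and were not checked this way.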

How the results depend on the processing

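The low-dose against saline count of 4531 called genes (2004 higher, 2527 lower) was 1847 (932 and 915) with the stretch as a fixed block, and 2976 with 1573 lower when only the saline arrays of stretch 1 were used. It was 130 (126 and 4) against a 2-fold threshold in limma's treat, and 7998 (3649 and 4349) of 23974 when every probe set was counted. With the oligodendrocyte covariate it was 3146 (1303 and 1843), of which 2673 were among the 4531 and of the same direction. High against low gave 174 (90 and 84) with the block, 1375 with 770 lower under array weights, and 28 (11 and 17) in stretch 3 alone. Low dose against mock gave 2599 (1163 higher) with the block, and 1110 (611 and 499) in stretch 3 alone. Lesioned saline against mock gave 88 (24 and 64) with the block, 554 (155 and 399) on dSPN arrays alone, 776 (234 and 542) under array weights, and 7 (2 and 5) in stretch 1 alone. The interaction gave 703 (373 and 330) with the block. Fits within a single stretch hold fewer arrays and the covariate differs between the groups; for the other settings the cause was not tested.

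Named values that changed sign were Gphn, at 0.13 (adjusted p = 0.444) with the mean of its probe sets, and Id2, at 0.12 (adjusted p = 0.807) with the oligodendrocyte covariate. With the block 4512 of the 4531 genes kept their sign, and with the covariate 4461 did. No paired analysis was possible because the replicate numbers are unique to each array. No stretch holds both groups, so stretch and drug are told apart only through mock and high-dose arrays. Dim genes cannot be given a limit of detection without detection calls.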
